A study of Mus musculus with 24 samples.

Results

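Complement genes were followed in the lungs of mice of 6 inbred strains, with and without induction of a TGF-β1 transgene. The set comprised 9 named genes: C1qa, C1qb, C1qc, C4b, C2, C3, Cfb, Hc and C7. They were looked up by gene symbol in the probe annotation of the array, which placed 8 of them among the 13499 genes measured, each on 1 probe set. C3, the central component, had no probe set under its symbol and was not analysed here. The series asks which genes modify the lung fibrosis that TGF-β1, a cytokine that drives matrix deposition, causes. Total RNA of the right lung lobe was hybridised to 24 arrays, 1 per mouse, from 17 transgenic (TG) and 7 wild-type (WT) mice.

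The strains A/J, AKR/J, BALB/cJ, C3H and 129 (labelled S129) each had 3 TG mice and 1 WT mouse, and C57BL/6J had 2 TG and 2 WT mice. Every mouse, WT included, had drunk doxycycline for 2 weeks, the drug that switches the transgene on, so that no value here comes from a mouse without the drug. The sources used here do not name the promoter that drives the transgene, the cells that express it or the age of the mice. Fibrosis-prone, in the series design, are C57BL/6J, A/J and AKR/J, and fibrosis-resistant are C3H, BALB/cJ and 129. The samples also carry a fibrosis code whose key reverses these sets, and that reading would turn the sign of each prone minus resistant value.

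Complement is a cascade of plasma proteins that tags surfaces for uptake, recruits leukocytes and punctures membranes. C1q, built from the products of C1qa, C1qb and C1qc, starts the classical pathway, and unlike most of the cascade it is made mainly by macrophages and related cells rather than by the liver. C4b, C2 and Cfb lie close together in the class III region of the major histocompatibility complex (MHC). C4 and C2 proteins form the classical C3 convertase, factor B forms the alternative one, C5 (encoded by Hc) is cleaved after C3, and C7 joins the membrane attack complex.

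The C1q genes stand next to each other in the RefSeq order, as 3 adjacent genes with no other gene between them, and their levels went together across mice as described below. The promoter table held 5 of the 9 genes, 4 of them measured. The 250 bases before the starts of C1qb and C1qc are shown because these neighbours moved together. Sequences are from RefSeq, written 5′ to 3′ on the gene's strand, and the capitals mark matches to GAGGAA or its reverse complement, the core bound by the macrophage factor PU.1.

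C1qb, chr4:136886201-136886450, GRCm38.p6, minus strand: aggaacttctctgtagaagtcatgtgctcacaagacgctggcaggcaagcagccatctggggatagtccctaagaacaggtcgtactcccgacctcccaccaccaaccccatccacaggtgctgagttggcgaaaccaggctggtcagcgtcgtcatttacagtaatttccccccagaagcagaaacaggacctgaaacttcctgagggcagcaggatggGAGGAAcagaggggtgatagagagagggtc

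C1qc, chr4:136892915-136893164, GRCm38.p6, minus strand: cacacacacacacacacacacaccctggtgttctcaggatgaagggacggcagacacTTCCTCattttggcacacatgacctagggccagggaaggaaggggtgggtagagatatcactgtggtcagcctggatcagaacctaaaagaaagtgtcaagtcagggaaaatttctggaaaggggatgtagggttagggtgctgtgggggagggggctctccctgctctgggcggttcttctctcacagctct

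Each C1q window held 1 GAGGAA match, on the gene's strand in C1qb and on the opposite strand in C1qc, 30 and 193 bases before the start at their first base. Of 32851 promoter windows of this length, 23.3% held such a match on either strand, so the letters are common. TTCNNNGAA, the STAT core, occurred in 7.0% of windows and was found in that of C7, once, 164 bases before the start, and in none of C1qb, C1qc and Hc. A match describes letters in a window and shows no binding.

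Values are log2 intensities as deposited, so a difference of 1 is a 2-fold change, and levels of different genes are not set against each other because each probe set binds differently. Array medians lay between 7.759 and 7.835, and the strain labels were checked on H2-Ea, a class II gene of the MHC that haplotype b silences. The 8 mice of C57BL/6J and 129 had 6.27 to 6.90, and the 16 mice of the other strains had 12.21 to 13.55. Of 7 lung identity genes 6 were measured, and their mean lay between 13.16 and 13.5 in TG mice and between 13.44 and 13.54 in WT mice. One library stood apart. TG BALB/cJ mouse 1 had a mean of 8.08 over 9 liver genes, with Alb (albumin) at 12.41, against 6.38 to 6.8 in the other 23 mice. BALB/cJ results are therefore given with and without it.

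**Figure D1:**
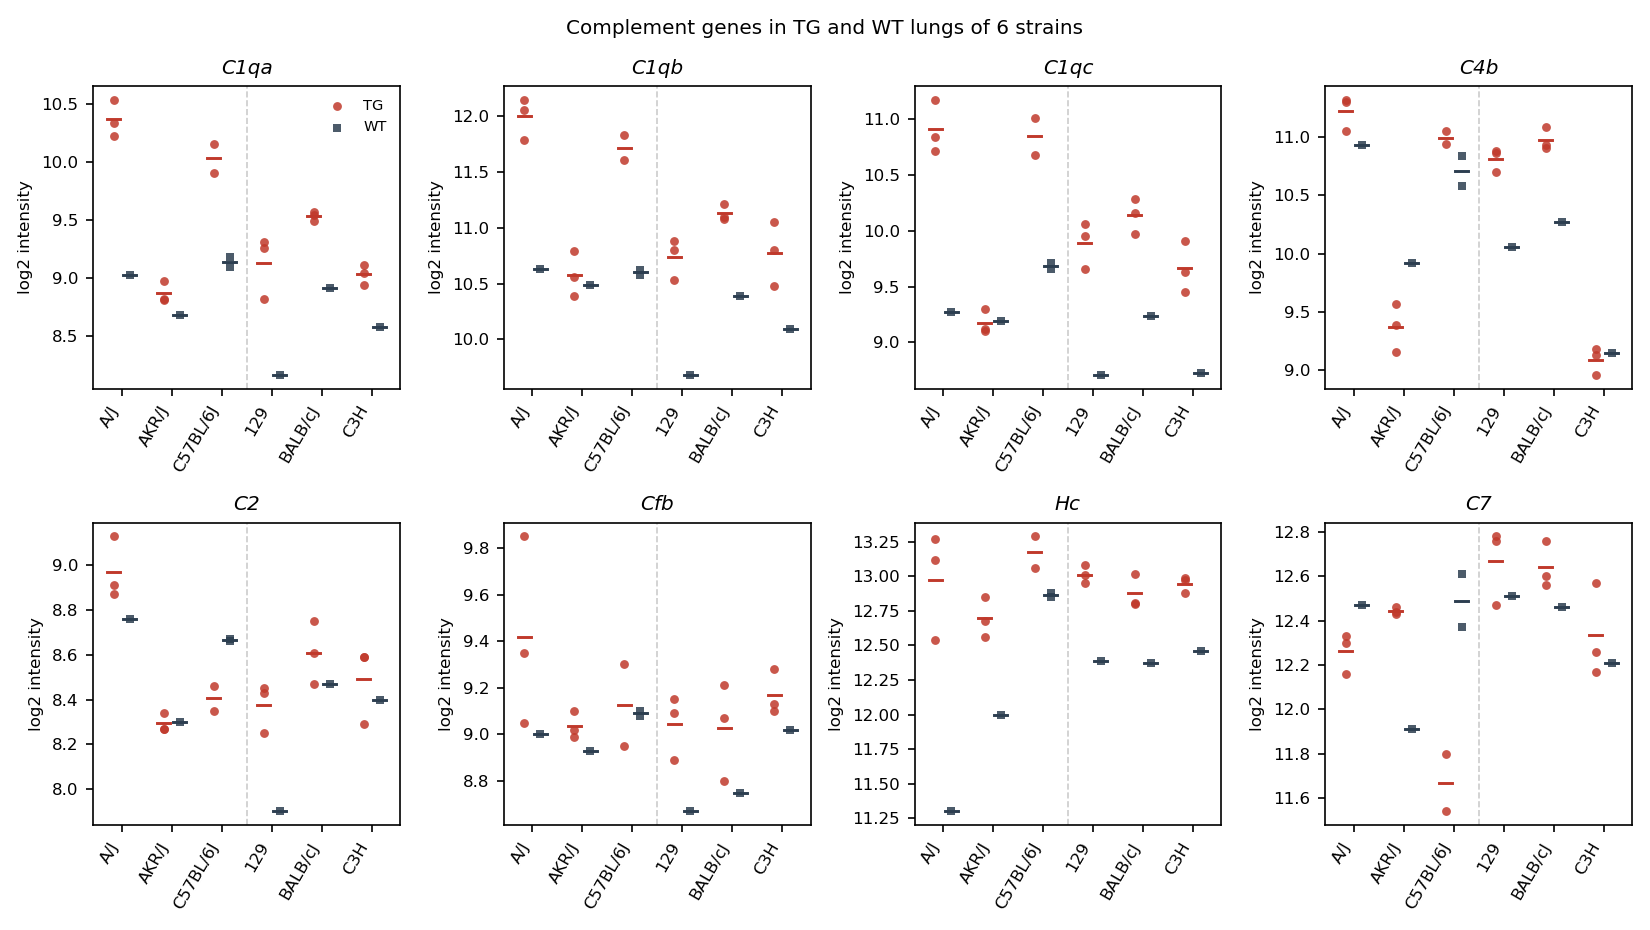
Log2 intensity of the 8 complement genes measured (vertical axes) in each of 24 mice by strain (horizontal axes), with TG mice as circles left of WT mice as squares and bars at group means. The dashed line parts the prone strains on the left from the resistant strains on the right. C4b was lowest in AKR/J and C3H, and the C1q genes were highest in TG mice of A/J and C57BL/6J.

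In TG lungs all 3 C1q genes and Hc rose over the 6 strains. C1qa rose by 0.76 ± 0.10 (SE; 1.69-fold), C1qb by 0.86 ± 0.11 (1.81-fold), C1qc by 0.97 ± 0.13 (1.96-fold) and Hc by 0.70 ± 0.12 (1.62-fold), from limma over 17 TG and 7 WT mice with strain as a fixed effect. Their adjusted p-values were 5.3e-06, 5.6e-06, 6.7e-06 and 0.00012, adjusted over all genes with a threshold of 0.05. C4b (0.24 ± 0.11, adjusted p = 0.11), C2 (0.09 ± 0.07, adjusted p = 0.38), Cfb (0.22 ± 0.08, adjusted p = 0.054) and C7 (-0.05 ± 0.11, adjusted p = 0.81) did not pass the limma threshold. Limma thus called 4 of 8 members, all higher, beside 26.7% of all genes in either direction and 13.2% higher. The median difference of the 8 was 0.47, against 0 for all genes. In whole lung, a change in the number of cells that make a transcript and a change in its amount per cell cannot be told apart.

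The TG effect depended on strain for C1qc (limma F = 7.87, adjusted p = 0.048), C4b (F = 10.9, adjusted p = 0.019) and C7 (F = 10.7, adjusted p = 0.020). These are 3 of 8 members, beside 1.34% of all genes. The C1qc call was lost in 14 of the 24 fits that left out 1 mouse, and reached adjusted p = 0.49 without WT AKR/J mouse 1. The C4b call was lost without that same mouse alone (adjusted p = 0.16), and the C7 call without WT C57BL/6J mouse 1 (adjusted p = 0.076) or TG C57BL/6J mouse 1 (adjusted p = 0.087). WT AKR/J mouse 1 is the only WT mouse of its strain, so the fits without it test the other strains only. Within strains, the test lends a single WT mouse the spread of all groups together.

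C1qc, the C chain of C1q, had 11.17, 10.71 and 10.84 in the TG A/J mice, against 9.27 in the WT A/J mouse. TG C57BL/6J mice had 11.01 and 10.68, against 9.71 and 9.66 in WT C57BL/6J mice. In both strains every TG mouse lay clear of the WT mice, by more than the spread among TG mice. TG 129 mice had 9.95, 9.66 and 10.06, against 8.71 in the WT 129 mouse. TG BALB/cJ mice had 10.28, 10.16 and 9.97, against 9.24 in the WT BALB/cJ mouse, and TG C3H mice had 9.63, 9.91 and 9.45, against 8.73 in the WT C3H mouse. These 3 resistant strains likewise had every TG mouse above its WT mouse. The WT levels of 129 and C3H were the lowest, while that of BALB/cJ was close to that of A/J. AKR/J was the exception, with 9.12, 9.30 and 9.10 in TG mice, on both sides of the 9.19 of the WT mouse.

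C1qc rose by 1.64 ± 0.20 in A/J (limma adjusted p = 7.1e-05), 1.16 ± 0.17 in C57BL/6J (adjusted p = 0.00022), 1.18 ± 0.20 in 129 (adjusted p = 0.0040), 0.89 ± 0.20 in BALB/cJ (adjusted p = 0.024) and 0.93 ± 0.20 in C3H (adjusted p = 0.037). The C3H call was lost without TG C3H mouse 1 (adjusted p = 0.068) or 2 (adjusted p = 0.11) and without TG AKR/J mouse 1 or 3 (adjusted p = 0.052 and 0.051). In AKR/J the difference of C1qc was -0.02, with a 95% interval from -0.44 to 0.40.

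C1qa, the A chain, lay between 8.81 and 10.54 in TG mice (median 9.31) and between 8.16 and 9.18 in WT mice (median 8.91). The 2 genotypes overlapped over all strains, but within strains all 17 TG mice lay above the WT mean of their strain. C1qa rose by 1.36 ± 0.16 in A/J, 0.90 ± 0.14 in C57BL/6J, 0.97 ± 0.16 in 129 and 0.62 ± 0.16 in BALB/cJ. It did not pass limma in C3H (0.46 ± 0.16, adjusted p = 0.28) or AKR/J (0.19 ± 0.16, 95% interval -0.14 to 0.52). C1qb, the B chain, lay above the WT mean of its strain in 16 of 17 TG mice. It rose by 1.37 ± 0.19 in A/J, 1.12 ± 0.17 in C57BL/6J and 1.06 ± 0.19 in 129. C1qb stayed short of the limma threshold in BALB/cJ (0.74 ± 0.19, adjusted p = 0.055), C3H (0.68 ± 0.19, adjusted p = 0.15) and AKR/J (0.10 ± 0.19, 95% interval -0.31 to 0.50).

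**Figure D2:**
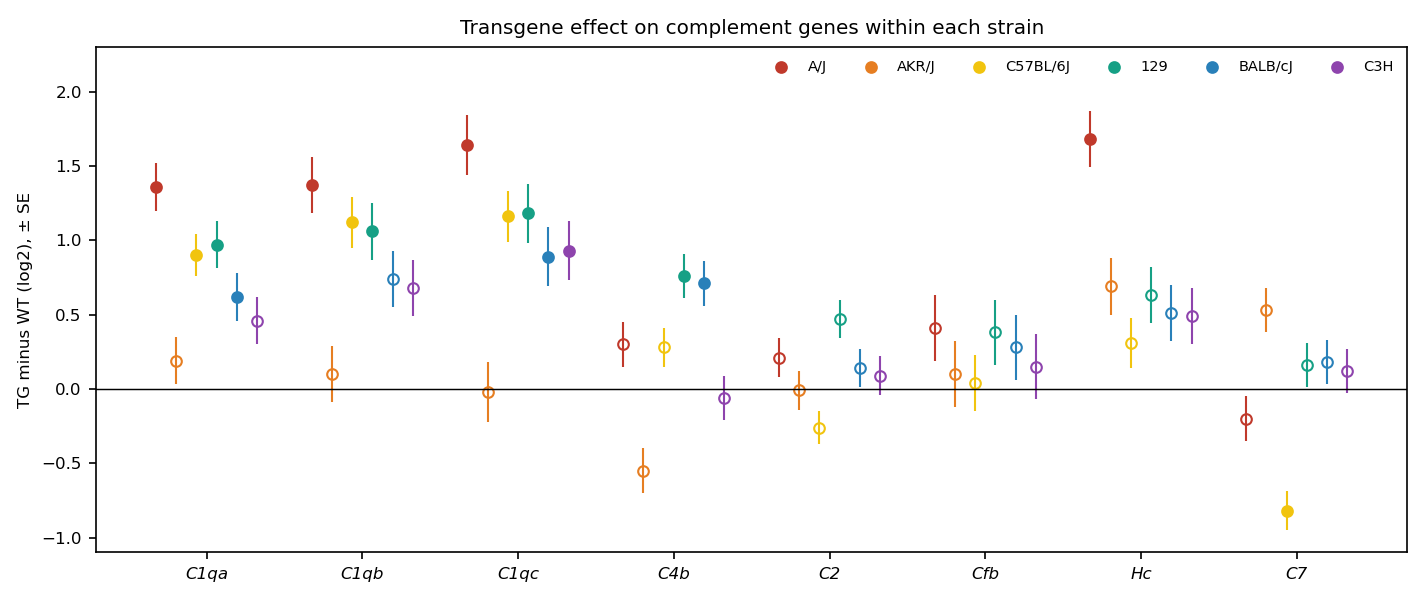
TG minus WT difference (log2, vertical axis) of each complement gene within each of 6 strains, from limma, with bars of ± 1 SE. Filled points passed an adjusted p of 0.05 and open points did not. The C1q genes had their highest values in A/J and their lowest in AKR/J, and C4b and C7 had values on both sides of 0.

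By strain, limma called 4 of 8 members in A/J, beside 14.9% of all genes: the 3 C1q genes and Hc, all higher. In C57BL/6J it called 4, beside 14.3% of all genes, with the C1q genes higher and C7 lower. In 129 it called 4, beside 2.95% of all genes, the C1q genes and C4b, all higher. In BALB/cJ it called 3, beside 2.26% of all genes, namely C1qa, C1qc and C4b. Without TG BALB/cJ mouse 1, the library with high liver genes, none of the 3 passed (C1qa 0.60, adjusted p = 0.13; C1qc 0.82, adjusted p = 0.077; C4b 0.65, adjusted p = 0.064), though the differences themselves moved little. The call of C1qa there was lost in 13 of 23 fits with a mouse left out. Without TG BALB/cJ mouse 2 the count was 1. In C3H only C1qc was called, beside 0.822% of all genes. In AKR/J 0 of 8 were called by limma, beside 2.11% of all genes, while C4b, Hc and C7 had unadjusted p-values of 0.0018, 0.0022 and 0.0032.

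C4b, which encodes C4 of the classical and lectin pathways, had the largest limma F of the 8 members for strain differences among TG mice (151, adjusted p = 1.4e-09). AKR/J and C3H carry MHC haplotype k, in which mouse C4 is known to be low, and this was the ground for setting these 2 strains against the other 4. TG AKR/J mice had 9.39, 9.57 and 9.16, and TG C3H mice had 9.13, 8.96 and 9.18. TG A/J mice had 11.05, 11.32 and 11.30, TG C57BL/6J mice 11.05 and 10.94, TG 129 mice 10.86, 10.70 and 10.88, and TG BALB/cJ mice 11.09, 10.91 and 10.93. The 6 TG mice of haplotype k thus lay below all 11 other TG mice, with no value between 9.57 and 10.70. C4b was lower by -1.77 ± 0.07 in TG mice of haplotype k (3.41-fold; limma adjusted p = 2.7e-11), second of all genes by the size of its test statistic.

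Among WT mice, which are other animals, these 2 strains were again lowest, but without a wide gap, as AKR/J lay close to 129. The WT AKR/J and C3H mice had 9.92 and 9.15, against 10.93 in A/J, 10.84 and 10.58 in C57BL/6J, 10.06 in 129 and 10.27 in BALB/cJ. C4b was lower by -0.96 ± 0.11 in WT mice of haplotype k (limma adjusted p = 0.00032), and it was the 1 member of 8 called there, beside 0.615% of all genes. That call was lost without the WT C3H mouse, which left 1 WT mouse of haplotype k and a difference of -0.57. Taken over strain means, the TG difference had an exact two-sided permutation p of 0.0667, the smallest that 2 strains against 4 can give, and the WT difference one of 0.133. These 2 strains share more than the MHC, and haplotype and strain background cannot be told apart.

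The direction of the TG effect on C4b differed by strain. C4b rose by 0.76 ± 0.15 in 129 (limma adjusted p = 0.011) and by 0.71 ± 0.15 in BALB/cJ (adjusted p = 0.019). In A/J it differed by 0.30 ± 0.15 and in C57BL/6J by 0.28 ± 0.13, short of the threshold in both. The differences in the haplotype k strains were -0.55 ± 0.15 in AKR/J (adjusted p = 0.068) and -0.06 ± 0.15 in C3H (adjusted p = 0.98), also short of it. Without WT AKR/J mouse 1, C4b over all strains reached 0.39 (limma adjusted p = 0.0022). With all mice but strains weighted equally it was again 0.24, with an SE of 0.06 in place of 0.11 (limma adjusted p = 0.0059). That equal-weight value came from the fit of group means, whose residual leaves out how the TG effect varied between strains. Whether C4b was called over all strains thus depended on that mouse and on the fit, while the weighting left the estimate at 0.24.

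**Figure D3:**
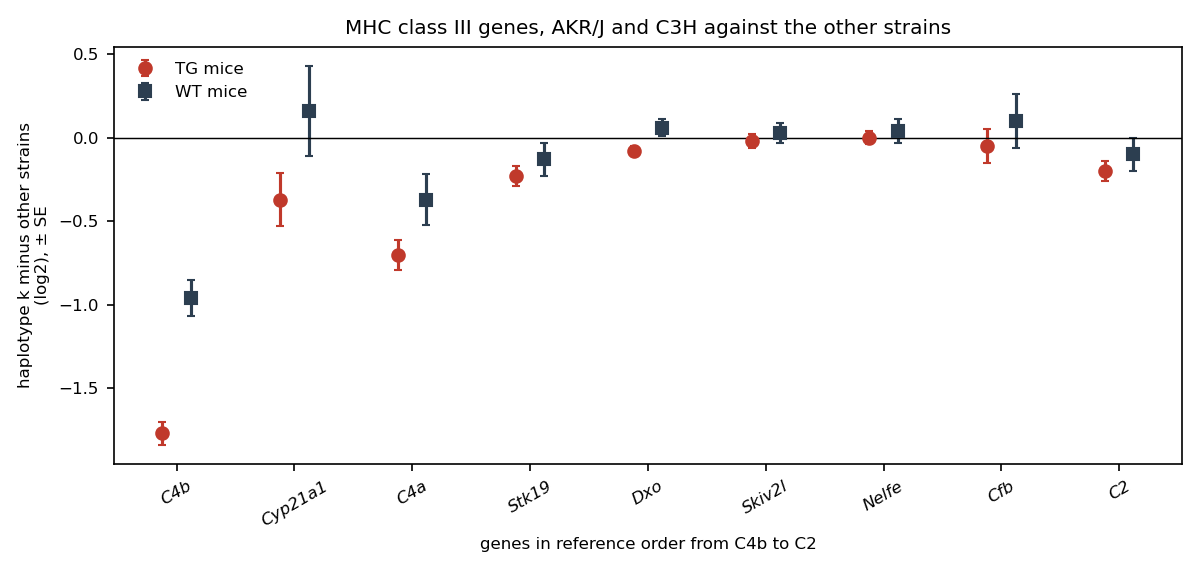
Haplotype k strains (AKR/J and C3H) minus the other 4 strains (log2, vertical axis, ± 1 SE) for the 9 genes measured from C4b to C2, in the reference order (horizontal axis). TG mice are circles, left of WT mice as squares. C4b lay lowest in both genotypes, C4a next, and Skiv2l, Nelfe and Cfb near 0 in TG mice.

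The reference places 15 genes from C4b to C2, of which 9 were measured, and among these the difference was largest at C4b in both genotypes. C4a, the copy of C4b, was lower by -0.70 ± 0.09 in TG mice of haplotype k (limma adjusted p = 7.1e-05), but the copies are nearly identical in sequence and their probe sets may bind both transcripts. The neighbouring gene Stk19, at -0.23 ± 0.06 (adjusted p = 0.014), was also lower. C2, the protease partner of C4, was lower by -0.20 ± 0.06 (adjusted p = 0.028), a call lost without TG AKR/J mouse 1 or 3, TG C3H mouse 3 or TG C57BL/6J mouse 1 (adjusted p of 0.061, 0.068, 0.098 and 0.066). Cfb, at -0.05 ± 0.10, Skiv2l (-0.02), Nelfe (0.00), Dxo (-0.08) and Cyp21a1 (-0.37, adjusted p = 0.14) did not pass the limma threshold. How strain variants affect the binding of these probes was not tested.

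Of the 8 members, limma called 5 lower in TG mice of haplotype k, beside 15.1% of all genes in either direction. Beside C4b and C2 these were C1qa (-0.82 ± 0.07), C1qb (-0.72 ± 0.09) and C1qc (-1.02 ± 0.09). The C1q genes lie on chromosome 4, away from the MHC, and among WT mice of haplotype k they did not pass, at -0.19, -0.04 and -0.26. Over strain means their TG differences had exact permutation p-values of 0.133, 0.200 and 0.133, and that of C2 was 0.467.

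C2 and Cfb passed in no comparison of TG with WT mice by limma. C2 lay between 7.90 and 9.13 over all mice, with TG mice above the WT mean of their strain in 11 of 17 cases. Its differences ran from -0.26 in C57BL/6J to 0.47 in 129, with adjusted p-values of 0.16 and 0.063 at these ends. TG A/J mice (8.87, 8.91 and 9.13) stood above the TG mice of all other strains, which reached 8.75. The WT A/J mouse also did, at 8.76, and the difference in A/J was 0.21 ± 0.13 (limma adjusted p = 0.34). Cfb, the alternative pathway protease, was above the WT mean in 16 of 17 TG mice, but its differences within strains, 0.04 to 0.41, did not pass. Its TG groups overlapped with their neighbours in the order of strain means throughout. Over all strains Cfb passed without TG A/J mouse 2 or 3, TG BALB/cJ mouse 3 or TG C57BL/6J mouse 2 (adjusted p of 0.032, 0.022, 0.038 and 0.023).

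Hc, which encodes C5, the source of the attractant C5a, lay higher in TG mice in all 6 strains and passed the test in A/J. TG A/J mice had 13.12, 13.27 and 12.54, against 11.30 in the WT A/J mouse. That WT mouse was the lowest of all 24, and the difference of 1.68 ± 0.19 (limma adjusted p = 5.4e-05) rests on it. In the other strains the differences ran from 0.31 in C57BL/6J to 0.69 in AKR/J and did not pass, although all 17 TG mice lay above the WT mean of their strain. Without the WT A/J mouse, Hc over all strains was 0.51.

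A/J and AKR/J carry a known loss-of-function allele of Hc, so their transcript level was compared with that of the other strains among TG mice. Hc in TG A/J and AKR/J mice differed from the other TG mice by -0.17 ± 0.08 (95% interval -0.35 to 0.01; limma adjusted p = 0.20). Among WT mice, Hc was lowest in these strains, at 11.3 in A/J and 12 in AKR/J, against 12.37 to 12.88 in the other WT mice. Each is the only WT mouse of its strain, and this WT difference was not tested. Limma called 0 of 8 members in the comparison of TG mice, beside 12.6% of all genes. C1qa, C1qb, C4b and C2 had an unadjusted limma p under 0.05, and the share of all genes under that value was not taken.

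C7, which joins the membrane attack complex, was the one member that fell in any strain by test. TG C57BL/6J mice had 11.54 and 11.80, against 12.61 and 12.37 in WT C57BL/6J mice, a fall of 0.82 on the log2 scale (SE 0.13, 1.76-fold, limma adjusted p = 0.00058). The pairs did not overlap, and these 2 TG mice were the lowest of the 24. AKR/J went the other way, with 12.43, 12.44 and 12.46 in TG mice, against 11.91 in the WT mouse, a difference of 0.53 ± 0.15 (adjusted p = 0.091). The WT AKR/J mouse was the lowest WT mouse. The other strains lay between -0.20 in A/J and 0.18 in BALB/cJ, and none of these passed limma.

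Among TG mice, levels differed between strains by limma for 6 of 8 members, beside 31.4% of all genes, with Cfb (adjusted p = 0.25) and Hc (adjusted p = 0.17) not passing. For C1qa the order of TG means was A/J (10.37 ± 0.16, SD, n = 3), C57BL/6J (10.04), BALB/cJ (9.54), 129 (9.13), C3H (9.03) and AKR/J (8.87 ± 0.09, SD, n = 3). Mice of neighbouring strains in that order did not overlap down to 129, and overlapped among 129, C3H and AKR/J. C4b had its step between 129 and AKR/J, 1.44 wide, and C7 had its step at the low end, with C57BL/6J 0.59 below A/J.

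TG mice of the prone strains had more C1qa (0.53 ± 0.07), C1qb (0.55 ± 0.08), C1qc (0.41 ± 0.08) and C4b (0.24 ± 0.06) and less C7 (-0.42 ± 0.07) than TG mice of the resistant strains. Limma called these 5 of 8, beside 11.1% of all genes, with 8 prone and 9 resistant mice. The C4b call was lost without TG C57BL/6J mouse 1 (adjusted p = 0.082). Prone AKR/J had the lowest C1q means of all, so the sets do not part by strain, and over strain means the exact permutation p-values ran from 0.2 to 0.5, where 3 strains against 3 can reach 0.1. WT mice of the prone strains (4 mice) also had higher means than WT mice of the resistant strains (3 mice) for the C1q genes and C4b. These means were 8.99 against 8.55 for C1qa, 10.58 against 10.05 for C1qb, 9.46 against 8.90 for C1qc and 10.57 against 9.83 for C4b. For C7 they were 12.34 against 12.39, and none of these WT differences was tested. The TG effect itself differed between the sets for 0 of 8 members by limma, beside 0.474% of all genes. C4b (-0.46 ± 0.12, adjusted p = 0.097), C7, C2 and Hc had an unadjusted limma p under 0.05 in that comparison. The share of all genes under that value was not taken.

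C1q went with macrophage genes. Of 20 macrophage and monocyte genes 11 were measured. Limma called 6 higher and 2 lower in TG mice, beside 13.2% of all genes higher and 13.5% lower, so the lower count is near the share. Ms4a7 was at 1.04 ± 0.12, Fcrls at 0.82 ± 0.14, the endotoxin co-receptor gene Cd14 at 0.62 ± 0.11 and the lipid receptor gene Trem2 at 0.52 ± 0.10. Mertk (-0.50 ± 0.08) and Stab1 (-0.27 ± 0.07), both uptake receptors, fell. The general macrophage genes Csf1r (0.16 ± 0.06), Adgre1 (0.13 ± 0.09) and Mrc1 (0.05 ± 0.07) did not pass. The list mean lay between 9.13 and 9.99 in TG mice and between 9.09 and 9.37 in WT mice. Its TG minus WT difference was 0.66 in A/J, 0.41 in C57BL/6J, 0.23 in 129, 0.17 in BALB/cJ, 0.14 in C3H and 0.07 in AKR/J. A/J and AKR/J were thus at the ends for this list as for C1q. Across the 24 mice, which share strains and genotypes, the mean of the C1q genes and the mean of this list had r = 0.91 and rho = 0.86, and r = 0.92 over the 17 TG mice. The part of cell number in the C1q change was not tested.

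**Figure D4:**
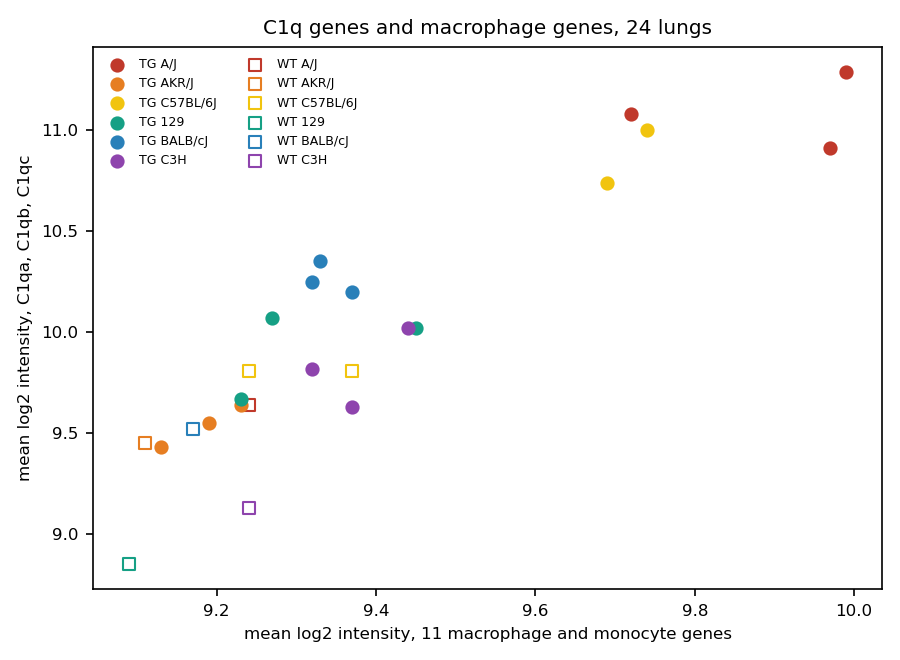
Mean log2 intensity of C1qa, C1qb and C1qc (vertical axis) against the mean of 11 macrophage and monocyte genes (horizontal axis), 1 point per mouse, with TG mice as filled circles and WT mice as open squares, coloured by strain. TG mice of A/J and C57BL/6J lie at the upper right, and TG AKR/J mice lie among the WT mice.

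Other cell lists moved less evenly. Their counts stand beside 13.2% of all genes called higher and 13.5% lower, and in lists this short a count of 1 is near that share. Of 6 alveolar macrophage genes measured of 11, 0 were called higher and 1 lower, the lipid carrier gene Fabp4 (-1.02 ± 0.17), with list means between 8.13 and 9.65 in TG mice and between 8.58 and 9.83 in WT mice. Of 10 fibroblast genes measured of 12, 4 were called higher and 2 lower, with Col1a1 at 1.02 ± 0.08. Mesothelial genes (5 of 7 measured) had 1 higher and 1 lower, type 2 alveolar cell genes (8 of 10 measured) 1 higher, Sftpd at 0.23 ± 0.08, and liver genes (9 of 12 measured) 2 higher, Ahsg and Fgg. Without TG BALB/cJ mouse 1, 3 liver genes were called higher by limma, Ahsg (0.54), Fgg (0.44) and Fga (0.16). All 9 liver genes were dim, with means below the median of all genes (8.31). Of them 4 lay below the lower quartile (6.77), Fga (6.51) included. Lung identity genes (6 of 7 measured) had 0 higher and 3 lower, in all 6 strains by direction: the airway gene Scgb1a1 (-0.29 ± 0.05) and the endothelial genes Pecam1 (-0.22 ± 0.04) and Cldn5 (-0.27 ± 0.05). No defining marker of these lists is at 0 on an array scale, and the part of these cells in the complement values was not tested.

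The genes most like each member over the 24 mice were found by Pearson's r, as a description. For C1qa these were Efhd2 (0.94), Jpt1 (0.94) and Ms4a7 (0.91), for C1qb H2bc9 (0.92), Efhd2 (0.91) and Emilin1 (0.91), and for C1qc Ms4a7 (0.93), Jpt1 (0.92) and Atpif1 (0.92). The C1q genes had r of 0.96 to 0.97 with each other, and 0.67 to 0.89 after group means were removed. With group means removed, C1qa was most like Fam167b (0.86), S100a4 (0.85) and Olfr1440 (0.84). C1qb was then most like Clu (0.86), Mgl2 (0.83) and Ltbp3 (0.83), and C1qc like Taar2 (0.86), Taar7d (0.84) and Adamts1 (0.83). Ms4a7 was not among these. C4b was most like its copy C4a (0.87) and the globin gene Cygb (0.86). C2 was most like Gbp5 (0.82), Cfb like Ctsz (0.83) and Hc like the class II invariant chain gene Cd74 (0.85). C7 had the weakest likeness, 0.75 with Dpyd. After group means were removed C7 ran against the C1q genes, at -0.55 to -0.65.

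Among 53 other genes of the pathway, 37 were measured, and limma called 9 higher and 5 lower in TG mice, beside 13.2% of all genes higher and 13.5% lower. The lower count is thus near the share over all genes. Their median difference was 0, as for all genes. Cd55b, a membrane inhibitor of the convertases, rose by 0.77 ± 0.10 (limma adjusted p = 7.4e-06), the fluid-phase inhibitor clusterin (Clu) by 0.51 ± 0.09, Cd59a, which blocks the membrane attack complex, by 0.47 ± 0.08, and Cfi, the protease that cleaves C3b and C4b, by 0.42 ± 0.11. Cfi was a dim probe set, at a mean of 6.21. It was among 11 of the 37 genes below the lower quartile of all genes (6.77), as were C8a (6.36) and C8b (6.67). Cr2, the complement receptor of B cells, fell by 0.73 on the log2 scale (SE 0.14), the inhibitor vitronectin (Vtn) by 0.56 (SE 0.09), Cd93, an endothelial receptor once named as a C1q receptor, by 0.30 (SE 0.05) and Cd46, a membrane regulator, by 0.28 (SE 0.08). All of these 8 genes moved one way in all 6 strains by direction. Serping1, the C1 inhibitor, at 0.00 ± 0.04, C6, at -0.01 ± 0.13, and the C8 genes, at -0.01 to 0.06, did not pass. The counts were 9 higher and 6 lower without TG BALB/cJ mouse 1.

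**Figure D5:**
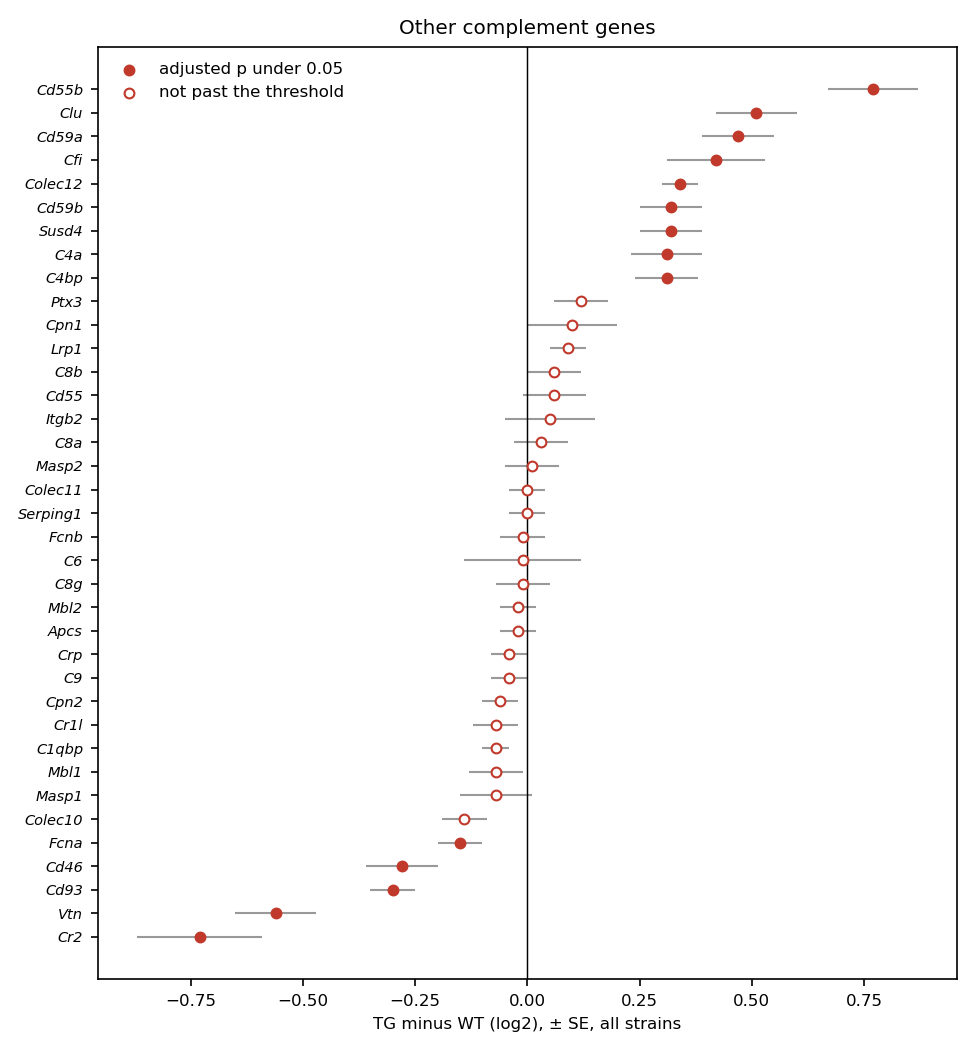
TG minus WT difference over all strains (log2, horizontal axis, ± 1 SE) of the 37 other complement genes measured, ordered by size. Filled points passed an adjusted p of 0.05. The 9 genes called higher lie at the top, with Cd55b at 0.77, and the 5 called lower at the bottom, with Cr2 at -0.73.

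Acute-phase and interferon-linked genes, known to move with C3, C4b and Cfb in other settings, did not go one way. Of 34 listed, 24 were measured, and limma called 9 higher and 5 lower, beside 13.2% of all genes higher and 13.5% lower. The counts were the same without TG BALB/cJ mouse 1. Lrg1 rose by 1.56 ± 0.13, lipocalin 2 (Lcn2) by 1.24 ± 0.09, the cytokine signalling inhibitor Socs3 by 1.04 ± 0.11 and Steap4 by 0.98 ± 0.14. The interleukin 6 receptor gene Il6ra fell by 0.55 on the log2 scale (SE 0.08), and so did the interferon-induced Ifit3 by 0.45 (SE 0.16), Gbp3 by 0.33 (SE 0.12) and the NF-κB inhibitor Nfkbia by 0.24 (SE 0.05). By direction Ifit3 fell in 4 strains and was higher in AKR/J (0.18) and BALB/cJ (0.15), and Gbp3 fell in 5 and was level in 129. The list mean differed by 0.38 in 129, 0.27 in A/J, 0.25 in C3H, 0.24 in AKR/J, 0.22 in BALB/cJ and 0.07 in C57BL/6J. The top and bottom strains were thus 129 and C57BL/6J. C2 had the same ends, at 0.47 and -0.26. C4b was also highest in 129 (0.76), but lowest in AKR/J (-0.55). Cfb was also lowest in C57BL/6J (0.04), but highest in A/J (0.41). The C1q genes had A/J and AKR/J at the ends, and the orders were not tested against each other.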

How the data were processed

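The values were log2 intensities per probe set from the series' deposited table, made by the authors. The log base was read from their range of 3.41 to 14.75, and the sources used here do not name the summarisation, normalisation or genome build. No further scaling was done, and array number limits the precision. The annotation gave 1 symbol to 14539 of 25285 probe sets, several to 781 and none to 9964. A gene was represented by its probe set of highest mean. Differences and adjusted p-values are from limma 3.58.1 in R 4.3.3 (two-sided, Benjamini-Hochberg over all genes). The comparison over all strains used strain plus genotype (17 residual degrees of freedom), and the others used 12 group means (12 residual degrees of freedom). The fits were tested on simulated data. Figures were drawn with matplotlib 3.10.9 in Python 3.11.15. Alternatives included quantile normalisation, array weights, a filter on dim genes, all probe sets, a replicate block, and leaving out mice or strains.

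All members are named; of other complement and acute-phase genes the 4 largest called changes each way, and per member the 3 genes most alike, or fewer. Other genes, such as list markers and neighbours of C4b, were chosen after their values were seen. The members and lists were chosen with earlier results of these data known. Mice of 1 group correlated at 0.9916 to 0.9972 across genes (17 pairs), and since the labels do not give litters the p-values measure the spread between these mice.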

Additional observations from a re-analysis of the deposited data

Results flagged for a closer look

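The TG effect differed between strains, by limma's F test over all genes, for C1qc (adjusted p = 0.048), C4b (adjusted p = 0.019) and C7 (adjusted p = 0.020). C1qc ran from -0.02 in AKR/J to 1.64 in A/J, C4b from -0.55 in AKR/J to 0.76 in 129, and C7 from -0.82 in C57BL/6J to 0.53 in AKR/J. Each of these AKR/J values is set against a single WT mouse.

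Cfb was high in TG A/J mouse 2, at 9.85 against 9.35 in the next of the 8 TG mice of the prone strains. Of 32 groups of mice checked for a value far from the rest, this was the 1 found, where chance gives about 1 in 20.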

How the results depend on the processing

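Of 1825 values recomputed under alternatives, 1733 stayed on their side of the threshold or, for counts, within 1.5 times, and among these the sign of C7 differed in 3 values called in neither setting. A further 58 lost a call, 10 gained one, 24 counts moved by over 1.5 times, and none of the called values turned. The 58 include calls retested over strain means by exact permutation. That p cannot fall under 0.0667 for 2 strains against 4 or 0.1 for 3 against 3, so those calls could not be kept. The count of members called in AKR/J was 1 with quantile normalisation and 2 with array weights. With array weights strain dependence had 6, the prone minus resistant difference 1, and A/J and AKR/J against the others 2. Same-numbered mice of different groups had a median correlation of -0.02 (52 pairs, 7 over 0.1). Differently numbered mice of different groups had a median of 0 (102 pairs, 6 over 0.1). The main fits treated the numbers as names of mice, and whether they also mark a pairing was not settled. With the replicate block the count in C3H was 0, with C1qc at 1.02 (adjusted p = 0.051), and the strain dependence of C1qc had adjusted p = 0.070. The C4b difference of haplotype k, -1.77, had an exact permutation p of 0.0667 over strain means. C4b over all strains passed at 0.24 (adjusted p = 0.0059) with strains weighted equally and at 0.39 (adjusted p = 0.0024) without AKR/J. Cfb passed with array weights (adjusted p = 0.029), without dim genes (0.047) and without C57BL/6J (0.050).

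With 1 mouse left out, the members called ranged from 4 to 5 over all strains, 1 to 4 for strain dependence, 6 to 8 among TG mice, 4 to 5 in A/J, 0 to 1 in AKR/J, 4 to 4 in C57BL/6J, 4 to 6 in 129, 0 to 4 in BALB/cJ and 0 to 2 in C3H (2 without TG C3H mouse 3). The strain dependence count was 1 without WT AKR/J mouse 1, WT C57BL/6J mouse 1 or TG C57BL/6J mouse 1, and the AKR/J count was 1 without TG A/J mouse 2 or 3 or TG AKR/J mouse 2. They ranged from 0 to 1 for the prone minus resistant difference (1 without TG A/J mouse 3 or WT AKR/J mouse 1), 4 to 5 for prone against resistant TG mice, 4 to 6 for haplotype k in TG and 0 to 1 in WT mice, and 0 to 1 for A/J and AKR/J (1 without TG 129 mouse 1 or TG AKR/J mouse 2). C4b in haplotype k ranged from -1.82 to -1.72 in TG and from -1.34 to -0.57 in WT mice. The cause of these shifts was not tested. A single WT mouse in 5 strains limits each comparison within them. Leaving it out also takes that strain out of the comparisons of TG with WT mice.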
